A study of Mus musculus with 48 samples.

Results

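Limb bud ectoderm of mouse embryos was profiled 3 h after a single dose of cadmium to the pregnant dam, and 3 cadmium arrays are compared here with 3 arrays from dams given phosphate-buffered saline (PBS). All probe sets of the Affymetrix MG-U74Av2 array that name exactly 1 gene were taken, which is 10855 of 12488 probe sets. Leaving out 22 array controls and averaging the rest per gene gave 8251 genes. The 6 arrays are part of a series of 48 that sets 2 teratogens, cadmium and acetazolamide, against their vehicles in forelimb bud ectoderm and mesoderm at 3 h and 12 h. Dams of the cadmium group received cadmium sulfate at 4 mg/kg in PBS by intraperitoneal injection on gestation day 9.5, and dams of the PBS group received PBS alone. Right forelimb buds were collected 3 h later, their ectoderm was freed with trypsin, and, by the treatment protocol, buds of several litters were combined for each RNA sample. The design text of the series nevertheless calls the extracts individual and non-pooled, and the labels used here give neither the strain nor the sex of the embryos. Nothing in the labels says which arrays came from separate pools. The p-values below therefore measure a spread between arrays, estimated for each gene over all 48 arrays of the series. That spread may in part be technical.

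Cadmium is a toxic divalent metal that binds thiols and displaces zinc from proteins. In most cells it releases the zinc-sensing transcription factor MTF-1 onto metal response elements, which induces metallothioneins and the zinc exporter gene Slc30a1, and it also induces heme oxygenase, glutathione enzymes and heat shock proteins. Limb bud ectoderm carries the apical ectodermal ridge, the strip of epithelium at the distal edge of the bud whose FGF ligands keep the underlying mesoderm growing, while Wnt ligands of the ectoderm set up the ridge and the dorsal side of the limb. Cadmium given to the dam at this stage is a known cause of forelimb defects in mice.

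The deposited values are ratios to PBS arrays and hold no expression level, so the ectoderm label could not be checked against levels of ectoderm markers. The ratios of PBS arrays 1 and 2 summed to 2 for every probe set (largest deviation 3e-07) and that of PBS array 3 was 1 (largest deviation 6e-08). On the log2 scale used below, PBS array 3 is therefore 0 for every gene, and PBS arrays 1 and 2 mirror each other around 0 (r = -0.96 across 8251 genes, which are not independent). From the numbering, cadmium arrays 1 and 2 are taken to share the denominator of PBS arrays 1 and 2, and cadmium array 3 that of PBS array 3. Cadmium array 3 stood apart from the other cadmium arrays. Its log2 ratios had an SD over genes of 0.33, against 0.196 for cadmium array 1 and 0.177 for cadmium array 2, and a median of 0.08, against -0.05 and -0.03. Across genes it had r = -0.22 with cadmium array 1 and r = 0.09 with cadmium array 2, while arrays 1 and 2, which share a denominator, had r = 0.54. The Gapdh 3' to 5' log2 ratio, an index of RNA integrity, was 0.40, 0.52 and -0.46 on cadmium arrays 1, 2 and 3, against 0.45 and -0.28 on PBS arrays 1 and 2. The same ratio for beta-actin was 0.14, -0.18 and -0.18 on cadmium arrays 1, 2 and 3, against -0.03 and 0.02 on PBS arrays 1 and 2, and there cadmium array 3 lay at the value of cadmium array 2. Since array 3 is a ratio of one cadmium array to one PBS array, a deviation of the cadmium sample and one of the PBS sample cannot be told apart. In the model a fit without cadmium array 3 is also a fit without PBS array 3, and its values are given below as those without array 3.

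No gene was shown to differ between cadmium and PBS ectoderm at 3 h. By limma, with Benjamini-Hochberg adjustment over 8251 genes, 0 genes (0%) passed the adjusted threshold of 0.05, and the smallest adjusted p was 0.514. At an unadjusted p under 0.05 there were 274 genes (3.32% of those tested), of which 176 (2.13%) lay higher after cadmium and 98 (1.19%) lower. Without array 3 the count of calls was again 0, with 535 genes at an unadjusted p under 0.05, of which 171 (2.07%) were higher and 364 (4.41%) lower, so the balance between higher and lower genes turned without it. Without PBS array 2 the count of calls was 96, of which 66 were higher and 30 lower, and 68 of the 96 were among the 274. The arrays of the 2 groups did not overlap for 775 genes (9.39%), with all 3 cadmium arrays above the PBS arrays for 460 (5.58%) and below them for 315 (3.82%). Such genes are said below to have separate arrays, which is judged on the mean of a gene's probe sets. An exact permutation test of 3 arrays against 3 cannot give a two-sided p under 0.1, the value that full separation gives. That bound takes the arrays as exchangeable. These ratios are not, since PBS array 3 is 0 for every gene and PBS arrays 1 and 2 mirror each other. The share of genes with separate arrays, 9.39%, can therefore not be read against it. The share to expect without any difference was not computed, so separate arrays are given below only as a description. Differences are cadmium minus PBS on the log2 scale with their SE from the model, and n = 3 arrays in each group throughout.

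The fit gives an interval for each gene, but without intensities a gene below background cannot be told from an unchanged one, so a narrow interval is no bound for such a gene. The 95% interval of a gene's difference reached a median of 0.27 to either side, and for 8116 genes (98.4%) it lay inside 1 log2 unit, that is, inside a 2-fold change in either direction. The estimated difference exceeded 1 log2 unit for 1 gene, Mllt3, and 0.5 for 72 genes. The median difference over all genes was -0.0079, and 46.9% of genes lay above 0. Another 1633 probe sets that name several genes or none were tested apart, with 0 calls, 56 at an unadjusted p under 0.05 and a smallest adjusted p of 0.134.

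Among genes that cadmium is known to act on through MTF-1, Mt2 gave the largest difference. Mt2 and Mt1 encode metallothioneins, small cysteine-rich proteins that bind zinc, copper and cadmium, and lie side by side on chromosome 8. The 300-base windows around their transcript starts (250 bases before to 50 after, RefSeq on GRCm38.p6, plus strand) are shown because MTF-1 is known to act on both genes through elements near their starts. Capitals mark matches to the core of the metal response element, TGCNCNC, on either strand, and no match overlapped one of the other motifs searched below.
Mt2 (chr8:94172368-94172667): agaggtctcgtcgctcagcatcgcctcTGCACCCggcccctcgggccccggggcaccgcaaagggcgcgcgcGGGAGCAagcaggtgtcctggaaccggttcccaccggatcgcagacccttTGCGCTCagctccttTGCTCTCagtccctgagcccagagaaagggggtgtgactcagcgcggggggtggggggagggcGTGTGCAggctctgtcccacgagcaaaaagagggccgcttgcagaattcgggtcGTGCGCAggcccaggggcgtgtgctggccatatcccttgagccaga
Mt1 (chr8:94178839-94179138): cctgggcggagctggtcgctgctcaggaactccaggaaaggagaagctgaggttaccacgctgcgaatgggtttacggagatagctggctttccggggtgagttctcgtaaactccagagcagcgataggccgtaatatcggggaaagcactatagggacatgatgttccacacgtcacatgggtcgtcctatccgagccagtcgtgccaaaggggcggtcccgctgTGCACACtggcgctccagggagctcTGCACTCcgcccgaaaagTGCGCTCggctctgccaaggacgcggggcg
The Mt2 window holds 6 matches and the Mt1 window 3. Of 32851 promoter windows in the same table, 51.0% hold at least 1 match, 7.10% at least 3 and 0.225% at least 6. A match is a description of the letters and not a binding site.

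The log2 ratio of Mt2 was 0.49, 0.41 and 0.83 on cadmium arrays 1, 2 and 3, against 0.09 and -0.10 on PBS arrays 1 and 2. All 3 cadmium arrays lay above the PBS arrays, and cadmium array 3 was the highest. The difference was 0.58 ± 0.26 (95% interval 0.04 to 1.11), a 1.49-fold ratio, with an unadjusted p of 0.0352 and an adjusted p of 0.999 by limma, and it was 0.45 without array 3. Mt1 was 0.08, 0.19 and 0.06 on cadmium arrays 1, 2 and 3, against -0.18 and 0.16 on PBS arrays 1 and 2. Its groups overlapped and its difference was 0.12 ± 0.18, with an interval of -0.24 to 0.48 that lies inside 1 log2 unit, as it does for 98.4% of genes. In tissue RNA of this kind a smaller share of cells with a transcript and less transcript per cell cannot be told apart.

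No other metal gene was at an unadjusted p under 0.05. Slc30a1, which exports zinc from the cell and is a textbook MTF-1 target, was 0.27, 0.11 and 0.01 on cadmium arrays 1, 2 and 3, against -0.05 and 0.05 on PBS arrays 1 and 2, a difference of 0.13 ± 0.08. Its cadmium arrays 1 and 2 lay above the PBS arrays and cadmium array 3 between them. Mtf1 itself was at -0.04 ± 0.11, the brain metallothionein gene Mt3 at -0.02 ± 0.14 and the squamous epithelial metallothionein gene Mt4 at 0.06 ± 0.09. Among transporters that can carry cadmium into cells, Slc39a8 (ZIP8) was at 0.07 ± 0.17 and the iron transporter Slc11a2 (DMT1) at -0.05 ± 0.11. Of the 20 measured metal genes, 0 passed the adjusted test, 8 lay above 0 and the median was -0.03, beside 46.9% above 0 and a median of -0.0079 over all genes. At an unadjusted p under 0.05, 1 was higher, Mt2, and 0 were lower. The lowest was the zinc transporter gene Slc30a5 at -0.31 ± 0.21, which was -0.04 without array 3. The copper pump genes Atp7a and Atp7b were at -0.27 ± 0.36 and -0.19 ± 0.12, the copper-carrying oxidase gene Cp at -0.03 ± 0.09, and the iron genes Tfrc (transferrin receptor) and Fth1 (ferritin) at -0.17 ± 0.13 and 0.07 ± 0.10. The zinc importer genes Slc39a4, Slc39a6 and Slc39a7 were at 0.0036 ± 0.12, -0.13 ± 0.28 and 0.11 ± 0.20, where Slc39a6 was 0.20 without array 3. Slc39a1 was at -0.06 ± 0.10, with separate arrays in the mean of its probe sets but in none of them alone. Slc30a3 and Slc30a4, which load zinc into vesicles, were at -0.03 ± 0.10 and -0.07 ± 0.12.

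Genes of the oxidative stress response, which cadmium induces in many cells by depleting glutathione, held 0 of 34 members past the adjusted test. Of these, 18 lay above 0, with a median of 0.02. Hmox1, the inducible heme oxygenase and one of the most sensitive cadmium markers in cultured cells, was -0.10, -0.13 and 0.30 on cadmium arrays 1, 2 and 3, against -0.13 and 0.12 on PBS arrays 1 and 2. Cadmium array 3 stood above the PBS arrays and cadmium arrays 1 and 2 near their lower edge, and the difference was 0.03 ± 0.13 (95% interval -0.25 to 0.30). At an unadjusted p under 0.05, 3 members were higher and 0 lower, beside 2.13% and 1.19% of all genes, and without array 3 the counts were 0 higher and 2 lower, beside 2.07% and 4.41%. The 3 were Tkt, transketolase of the pentose phosphate pathway, at 0.38 ± 0.19, the autophagy receptor gene Sqstm1 at 0.36 ± 0.12, and the constitutive heme oxygenase gene Hmox2 at 0.35 ± 0.14. Tkt alone among these 3 had separate arrays, and its value was 0.17 without array 3, where Sqstm1 was 0.22 and Hmox2 0.30.

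Several chaperone genes of the cytosolic heat shock response lay below PBS. Dnajb1, an Hsp40 cochaperone that heat shock factor HSF1 induces, was -0.43, -0.28 and -0.62 on cadmium arrays 1, 2 and 3, against 0.07 and -0.07 on PBS arrays 1 and 2. All 3 cadmium arrays lay below the PBS arrays, and the difference was -0.44 ± 0.17 (unadjusted p = 0.0144, adjusted p = 0.999 by limma). Chordc1, which encodes a cochaperone of Hsp90, was -0.40, -0.51 and -1.12 on cadmium arrays 1, 2 and 3, against 0.27 and -0.35 on PBS arrays 1 and 2. Its arrays were also separate, but PBS array 2 lay just above cadmium array 1, and the arrays were not separate on each of its probe sets. The difference was -0.65 ± 0.39 with all arrays and -0.42 without array 3. Hsph1, the Hsp110 nucleotide exchange factor, was at -0.58 ± 0.25 and at -0.26 without array 3.

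The start of Chordc1 is shown because it holds 2 copies of the paired heat shock unit GAANNTTC, which reads the same on both strands. Capitals mark the copies, on the plus strand of GRCm38.p6 as RefSeq gives it.
Chordc1 (chr9:18292017-18292316): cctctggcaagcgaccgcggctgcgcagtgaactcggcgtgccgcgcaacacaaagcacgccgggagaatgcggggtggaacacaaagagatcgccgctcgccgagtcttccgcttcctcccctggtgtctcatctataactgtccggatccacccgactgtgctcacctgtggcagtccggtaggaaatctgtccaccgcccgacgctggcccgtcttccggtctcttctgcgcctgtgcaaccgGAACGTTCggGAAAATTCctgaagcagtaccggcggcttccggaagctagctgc
Of the 32851 windows 7.86% hold at least 1 copy and 0.344% at least 2. Both windows of Dnajb1, the member of the list with the smallest p, hold 0 copies, and those of Hsph1 hold 1 each. The inducible Hsp70 genes Hspa1a and Hspa1b, with 1 copy each, were at -0.33 ± 0.26 and -0.04 ± 0.43, and at -0.15 and 0.30 without array 3. Hspa1b ranged from -0.72 on cadmium array 3 to 0.42 on cadmium array 1, and its 95% interval of -0.92 to 0.84 is among the wide ones. Hspa1a and Hspa1b are near-identical copies and their probes may read both transcripts. Of 28 heat shock genes, 12 lay above 0 and 0 passed the adjusted test, with a median of -0.02, or 0.06 without array 3. At an unadjusted p under 0.05, 2 were lower, Dnajb1 and Hsph1, beside 1.19% of all genes, and without array 3 there were 0.

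**Figure D1:**
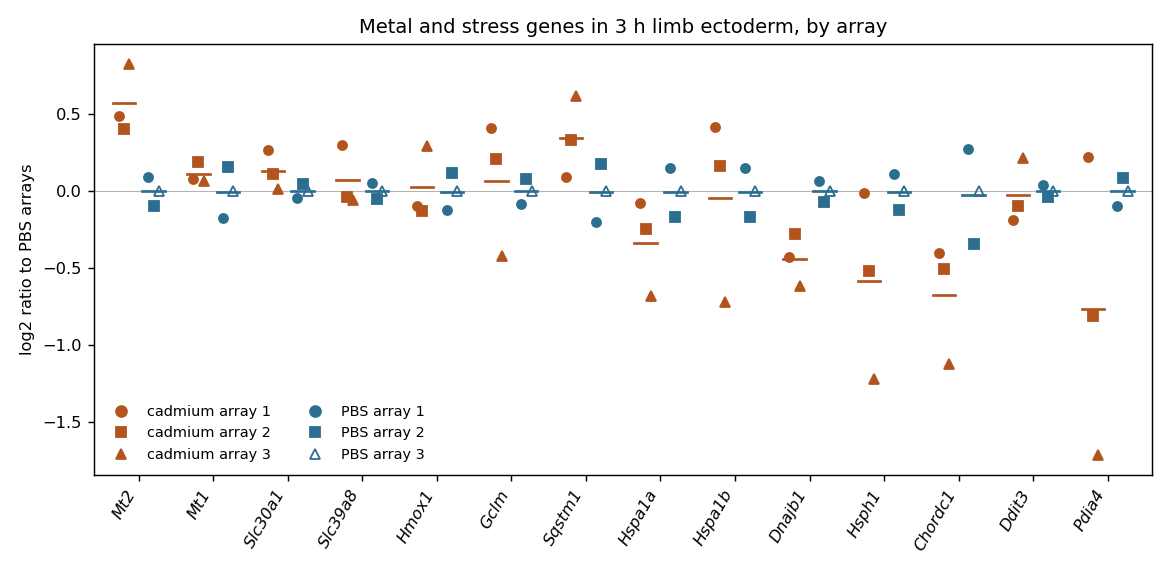
Log2 ratio to PBS arrays (vertical axis) of 14 metal and stress genes, with cadmium arrays (orange-brown; circle 1, square 2, triangle 3) left of PBS arrays (blue; the hollow triangle, array 3, is 0 by construction) and bars at the group means. The cadmium mean stands above the PBS mean for Mt2 and Sqstm1 and below it for Dnajb1, Hsph1 and Chordc1, and Pdia4 has -1.72 on cadmium array 3 and 0.22 on cadmium array 1.

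Genes of the unfolded protein and amino acid stress responses, which restore folding in the endoplasmic reticulum, had 11 of 34 members above 0, with a median of -0.05, and 0 passed the adjusted test. Pdia4, a disulfide isomerase, was 0.22, -0.81 and -1.72 on cadmium arrays 1, 2 and 3, against -0.09 and 0.09 on PBS arrays 1 and 2. Its cadmium arrays spread on both sides of PBS, and the difference of -0.77 ± 0.30 was -0.29 without array 3. The cochaperone gene Dnajb9 was at -0.40 ± 0.17 (-0.17 without array 3), and the transcription factor gene Xbp1 at -0.37 ± 0.22. Ddit3, which encodes the stress factor CHOP, was at -0.02 ± 0.15, with a 95% interval of -0.33 to 0.28. On the upper side Atf6 was at 0.27 ± 0.09, and at 0.29 without array 3. At an unadjusted p under 0.05, 1 member was higher (Atf6) and 2 lower (Pdia4 and Dnajb9), beside 2.13% and 1.19% of all genes. Without array 3 these counts were 1 and 0, beside 2.07% and 4.41%. Arrays were separate upward for 4 members (11.8%) and downward for 3 (8.82%), beside 5.58% and 3.82% of all genes. Ero1b, an oxidase that supplies disulfide bonds in the endoplasmic reticulum, lay outside the list and was -0.47, -0.74 and -1.83 on cadmium arrays 1, 2 and 3, against 0.42 and -0.59 on PBS arrays 1 and 2. Its difference of -0.96 ± 0.29 was among the 5 with the smallest p on the lower side (unadjusted p = 0.0024 by limma), but PBS array 2 fell inside the cadmium range and the value was -0.52 without array 3.

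DNA damage, cell death and immediate early genes held 0 members past the adjusted test. Of 17 targets of the tumour suppressor p53, 7 lay above 0 with a median of -0.02, beside 46.9% and -0.0079 over all genes. At an unadjusted p under 0.05, 0 were higher and 1 was lower, beside 2.13% and 1.19% of all genes. That gene was Plk2, a kinase induced by stress, at -0.63 ± 0.24, and its value rested on array 3 (-1.60 there and -0.14 without it). Gadd45a, a growth arrest gene, was at -0.38 ± 0.27 and the ribonucleotide reductase gene Rrm2b at 0.28 ± 0.17, and Gadd45a was -0.23 without array 3. Of 28 cell death genes 15 lay above 0, with a median of 0.01. At an unadjusted p under 0.05, 0 were higher and 1 lower, or 0 and 4 without array 3, beside 2.07% and 4.41% of all genes there. Arrays were separate upward for 0 and downward for 3 (10.7%), beside 5.58% and 3.82% of all genes. Among the 28 the survival gene Bcl2l2 was at -0.35 ± 0.15 with separate arrays. The executioner caspase gene Casp6 was at 0.25 ± 0.18 and the apoptosis inhibitor gene Birc2 at -0.24 ± 0.14 (-0.12 without array 3). Of 24 immediate early genes 11 lay above 0. The growth and stress factor genes Fos and Atf3 were at -0.03 ± 0.16 and -0.02 ± 0.08. Egr1, another early factor, was at -0.14 ± 0.09 with separate arrays, and the lowest members were the Krüppel-like factor genes Klf6 at -0.27 ± 0.17, Klf4 at -0.21 ± 0.09 and Klf10 at -0.21 ± 0.20. Klf4 was -0.04 without array 3. Hmox1, Hspa1a, Hspa1b, Ddit3, Atf6, Fos, Egr1 and Atf3 fall outside the rule for named genes and were chosen after their values were seen.

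Wnt3 had the highest value of the ridge list and Fgf8 the lowest. Wnt3, the ligand that limb ectoderm needs to form the ridge (chromosome 11, 103774175 to 103818021 on GRCm38.p6), was 0.66, 0.52 and 0.56 on cadmium arrays 1, 2 and 3, against -0.08 and 0.07 on PBS arrays 1 and 2. The 3 cadmium arrays lay close together and all above the PBS arrays. The difference was 0.58 ± 0.14 (95% interval 0.29 to 0.88), a 1.5-fold ratio, with unadjusted p = 0.000338 and adjusted p = 0.514 by limma, and it was 0.60 without array 3. Wnt10a, another ectodermal ligand, was 0.32, 0.40 and 0.37 on cadmium arrays 1, 2 and 3, against -0.25 and 0.21 on PBS arrays 1 and 2. Its groups were also separate, and the difference was 0.38 ± 0.20. Wnt4 was at 0.39 ± 0.22 (0.25 without array 3), while the dorsal signal Wnt7a was at 0.03 ± 0.17, Wnt6 at 0.03 ± 0.21, Wnt7b at 0.03 ± 0.09 and Wnt3a at -0.0069 ± 0.11. Ctnnb1, which encodes the Wnt effector beta-catenin, was at 0.04 ± 0.17, and the coreceptor gene Lrp6 at -0.20 ± 0.14.

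The lowest ridge gene was Fgf8, the main FGF ligand of the ridge (chromosome 19, 45736491 to 45742941), at -0.07, -0.70 and -1.28 on cadmium arrays 1, 2 and 3, against -0.35 and 0.28 on PBS arrays 1 and 2. Cadmium array 1 lay within the PBS range and cadmium arrays 2 and 3 below it, with array 3 the lowest. The difference was -0.66 ± 0.23 (95% interval -1.14 to -0.19, unadjusted p = 0.00798 by limma), and -0.35 without array 3. The other ridge FGF genes lay near 0, Fgf4 at 0.13 ± 0.19, Fgf9 at 0.05 ± 0.11 and Fgf17 at -0.05 ± 0.14. Rspo2, a secreted enhancer of Wnt signalling that maintains the ridge, was -0.79, -0.57 and -0.71 on cadmium arrays 1, 2 and 3, against 0.54 and -0.86 on PBS arrays 1 and 2. PBS array 2 was lower than all 3 cadmium arrays, so the difference of -0.58 ± 0.26 stands beside a spread among PBS arrays that is wider than it.

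Among BMP ligands of the ectoderm, Bmp7 was at 0.33 ± 0.21 (0.17 without array 3), Bmp4 at 0.27 ± 0.16 and Bmp2 at -0.0078 ± 0.07. Of the homeobox genes of the ridge, Dlx2 was at 0.42 ± 0.25, Dlx3 at 0.25 ± 0.20, Dlx6 at 0.24 ± 0.20, Dlx5 at -0.17 ± 0.23 and Dlx1 at 0.11 ± 0.14. Without array 3 the values of Dlx3 and Dlx6 were 0.48 and 0.47. The BMP-responsive genes Msx1 and Msx2 were at -0.08 ± 0.27 and -0.17 ± 0.25, and En1, the ventral ectoderm factor, at -0.01 ± 0.13. Jag2, a Notch ligand of the ridge, was at 0.36 ± 0.19 and the ephrin gene Efna1 at 0.30 ± 0.15, or 0.15 without array 3. Trp63, which encodes the p63 factor that ectoderm needs to stratify, was at -0.23 ± 0.26, and its sign turned without array 3 (0.14), as did that of the integrin gene Itga6 (-0.13 ± 0.23, and 0.35 without array 3).

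The receptor genes Fgfr2 and Fzd1 were at -0.07 ± 0.13 and -0.01 ± 0.12, the Wnt inhibitor gene Dkk1 at -0.01 ± 0.18, the R-spondin receptor gene Lgr5 at -0.05 ± 0.11 and Notch1 at -0.02 ± 0.13. Gja1, the gap junction protein of the ridge, was at -0.12 ± 0.23 and the laminin receptor gene Itga3 at 0.14 ± 0.15, and without array 3 they were 0.03 and -0.0067.

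In all, 18 of 37 ridge and limb ectoderm genes lay above 0, with a median of -0.0069, or 23 and a median of 0.05 without array 3. Over all genes these medians were -0.0079 and -0.03. Of the 37, 0 passed the adjusted test. At an unadjusted p under 0.05, 1 was higher (Wnt3) and 2 lower (Fgf8 and Rspo2), beside 2.13% and 1.19% of all genes. Without array 3 these counts were 4 higher and 0 lower, beside 2.07% and 4.41%. Arrays were separate upward for 4 (Wnt3, Wnt10a, Efna1 and Dlx1) and downward for 1 (Cd44, the hyaluronan receptor of the ridge, at -0.09 ± 0.07), beside 5.58% and 3.82% of all genes. For Cd44 they were not separate on each of its probe sets.

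**Figure D2:**
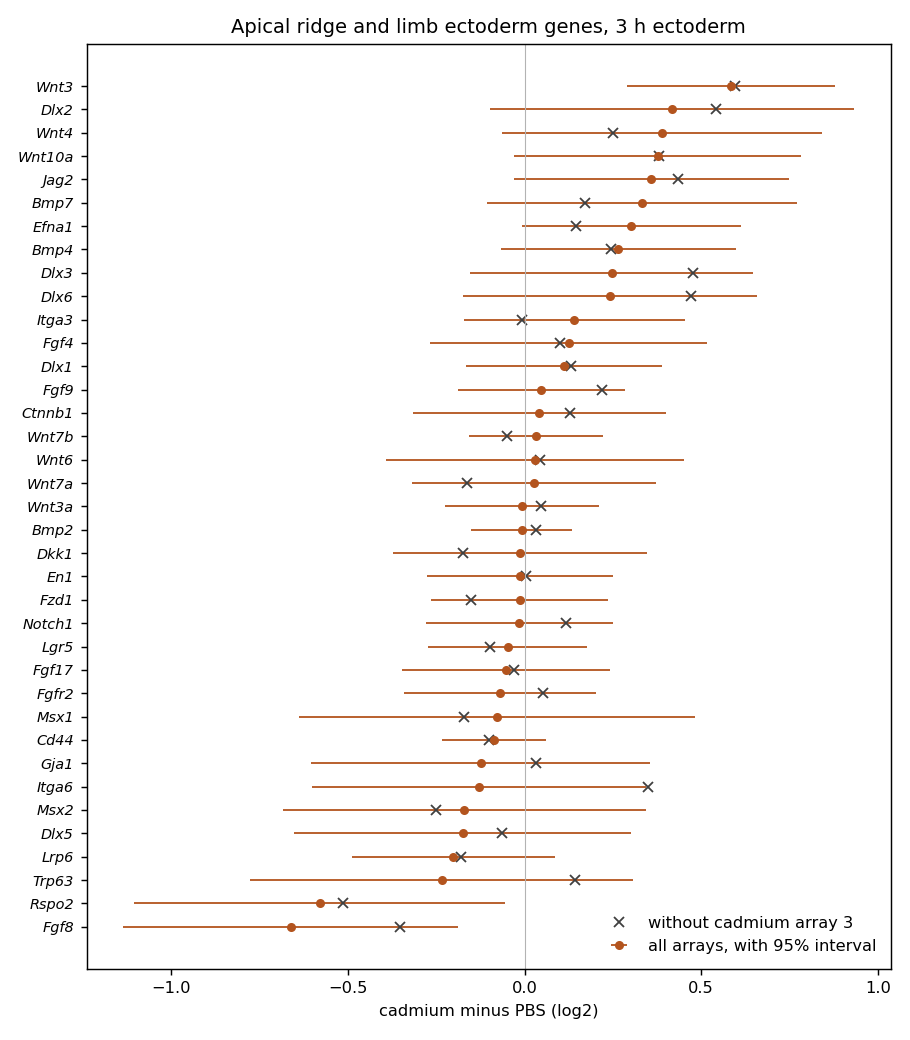
Difference between cadmium and PBS (horizontal axis, log2) of the 37 measured ridge and limb ectoderm genes (rows), with 95% intervals for all arrays (orange-brown) and the value without array 3 (crosses). Wnt3 stands at the top with an interval of 0.29 to 0.88, and Rspo2 and Fgf8 at the bottom, where the Fgf8 value without array 3 is -0.35.

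In the signalling pathways around the ridge the largest differences belonged to Wnt11 and to 2 genes that degrade or bind retinoic acid. Wnt11, a ligand that mostly signals without beta-catenin, was 0.39, 0.77 and 0.58 on cadmium arrays 1, 2 and 3, against -0.11 and 0.10 on PBS arrays 1 and 2. All 3 cadmium arrays lay above the PBS arrays, and the difference was 0.58 ± 0.16 (unadjusted p = 0.000841, adjusted p = 0.741 by limma) with all arrays and 0.58 without array 3. In the Wnt receptors, Fzd3 was at -0.28 ± 0.12 and Fzd2 at 0.26 ± 0.20 (0.07 without array 3), and 12 of the 32 measured members of the pathway lay above 0. Cyp26a1, the enzyme that degrades retinoic acid, was 0.71, 0.70 and 0.39 on cadmium arrays 1, 2 and 3, against -0.35 and 0.28 on PBS arrays 1 and 2. The groups were separate and the difference was 0.62 ± 0.22 (unadjusted p = 0.0075 by limma). The retinoic acid binding protein gene Crabp2 was at -0.61 ± 0.32 and the retinol carrier gene Rbp4 at -0.25 ± 0.13, and 7 of 16 genes of the retinoic acid pathway lay above 0.

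Among FGF receptors and their feedback genes, Fgfr1 was at 0.19 ± 0.22, Spred2 at 0.17 ± 0.23 and the phosphatase gene Dusp6, a readout of FGF signalling, at -0.17 ± 0.16. Without array 3 Fgfr1 was -0.01 and Dusp6 -0.09. The 2 Dusp6 probe sets were at 0.03 ± 0.11 and -0.37 ± 0.26. In Hedgehog signalling the transducer gene Smo was at 0.24 ± 0.17, the receptor gene Ptch1 at 0.15 ± 0.18 and the ligand gene Shh at 0.12 ± 0.11, and 9 of 11 members lay above 0 with a median of 0.03. Without array 3 Ptch1 was 0.03 and 6 of the 11 lay above 0, and the 2 Ptch1 probe sets had opposite signs (0.48 ± 0.38 and -0.18 ± 0.14). Of 27 BMP genes 11 lay above 0. The effector gene Smad1 was at -0.34 ± 0.33, with -1.46 on cadmium array 3 and 0.36 on cadmium array 1, and it was 0.22 without array 3. The Notch target gene Hes1 was at 0.26 ± 0.13 with separate arrays and the Notch regulator gene Dtx1 at 0.14 ± 0.12, and without array 3 they were 0.16 and 0.0014. In each of these 6 pathway lists 0 members passed the adjusted test. At an unadjusted p under 0.05, Fgf18 (of 17 FGF genes), Wnt11 (of 32) and Cyp26a1 (of 16) were higher and Fzd3 (of 32) was lower. Over all genes 2.13% were higher and 1.19% lower at that threshold.

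The 10 highest differences among genes with separate arrays are given next. They were chosen for that separation, so no test is read from it. Tfap2b, a transcription factor of neural crest and epidermis, was 0.95, 1.24 and 0.19 on cadmium arrays 1, 2 and 3, against -0.13 and 0.12 on PBS arrays 1 and 2. Cadmium array 3 lay just above PBS array 2, and the difference of 0.80 ± 0.25 was 1.10 without array 3. Pkp3, a plakophilin of desmosomes, was 0.63, 0.58 and 0.77 on cadmium arrays 1, 2 and 3, against -0.51 and 0.38 on PBS arrays 1 and 2. The cadmium arrays lay close together above a wide PBS range, and the difference was 0.71 ± 0.20 (unadjusted p = 0.00119 by limma). Specc1, which encodes the coiled-coil protein cytospin B, was 0.67, 0.49 and 0.84 on cadmium arrays 1, 2 and 3, against 0.03 and -0.03 on PBS arrays 1 and 2. PBS arrays lay near 0 and the cadmium arrays well above them, with a difference of 0.67 ± 0.15 (unadjusted p = 0.000146, adjusted p = 0.514 by limma).

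Hbb-y, an embryonic beta-like globin gene, was at 0.78 ± 0.33, but its 2 probe sets disagreed, at -0.04 ± 0.30 and 1.61 ± 0.46, so its place here rests on 1 of them. The others in this set were Spsb1, an adaptor of a ubiquitin ligase, at 0.64 ± 0.19, the palmitoyltransferase gene Zdhhc3 at 0.62 ± 0.23, Crcp, a component of the CGRP receptor and of RNA polymerase III, at 0.61 ± 0.21, and the guanine nucleotide exchange factor gene Arhgef5 at 0.60 ± 0.20, beside Cyp26a1 and Wnt3. The next value after these 10 was 0.58.

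On the lower side Mllt3 came first. It encodes AF9, a chromatin reader of the transcription elongation machinery, on chromosome 4 (87769925 to 88033407). Its log2 ratio was -0.50, -1.20 and -1.39 on cadmium arrays 1, 2 and 3, against -0.32 and 0.26 on PBS arrays 1 and 2. All 3 cadmium arrays lay below the PBS arrays, cadmium array 1 by the least. The difference was -1.01 ± 0.24 (95% interval -1.49 to -0.53, unadjusted p = 0.000201, adjusted p = 0.514 by limma), and -0.82 without array 3. Next were Chordc1, the arginine and serine rich protein gene Rsrp1 at -0.65 ± 0.23, the nuclear matrix protein gene Banp at -0.51 ± 0.17, the adiponectin receptor gene Adipor2 at -0.46 ± 0.15, and the small GTPase gene Arf5 at -0.45 ± 0.14. Dnajb1, Tmem45a at -0.41 ± 0.31, the RNA-binding protein gene Tial1 at -0.41 ± 0.14 and Pfkp, a phosphofructokinase of glycolysis, at -0.40 ± 0.35 completed the set, and the next value was -0.40. The unadjusted p of Tmem45a was 0.202 and that of Pfkp 0.252 by limma. For Chordc1 and Pfkp the arrays were separate in the mean of the probe sets but not on each probe set.

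**Figure D3:**
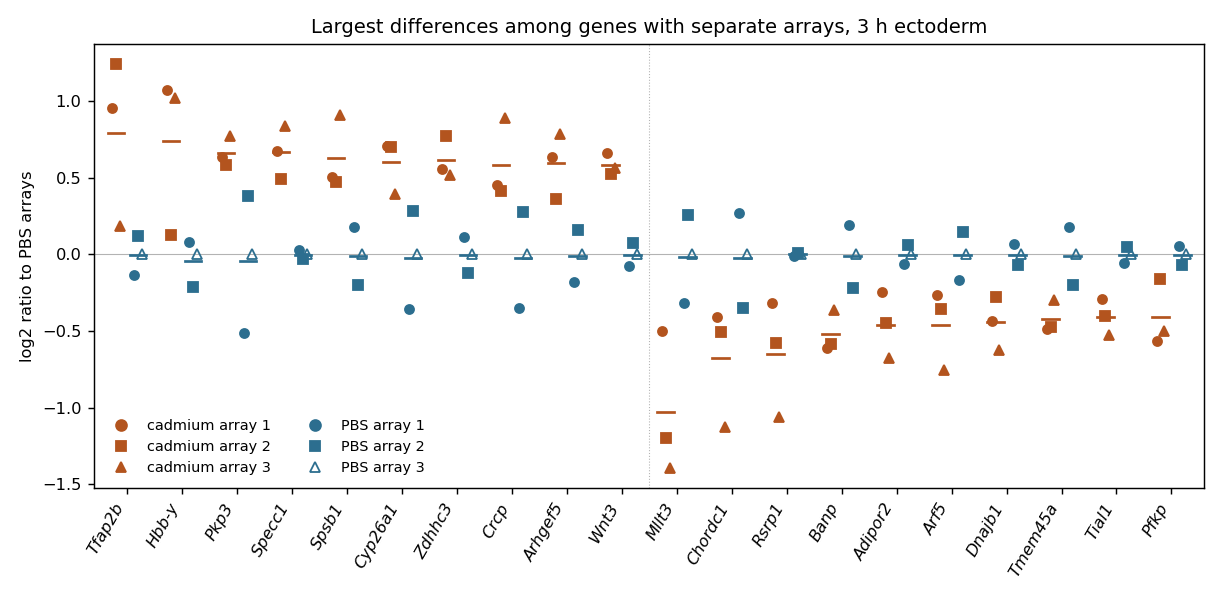
Log2 ratio to PBS arrays (vertical axis) of the 10 highest (left of the dotted line) and 10 lowest differences among genes with separate arrays, with cadmium arrays (orange-brown) left of PBS arrays (blue), the hollow triangle (PBS array 3) at 0 by construction, and bars at group means. Wnt3 and Pkp3 have tight cadmium arrays, while in Tfap2b cadmium array 3 (0.19) and in Hbb-y cadmium array 2 (0.13) lie near the PBS arrays.

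The smallest p belonged to Rassf5, which encodes an adaptor that binds Ras and Rap1. It was 0.48, 0.31 and 0.37 on cadmium arrays 1, 2 and 3, against -0.08 and 0.07 on PBS arrays 1 and 2. The difference of 0.39 ± 0.08 (unadjusted p = 6.29e-05, adjusted p = 0.514 by limma) is smaller than that of Specc1 or Wnt3, as is its SE. After it on the upper side came Specc1, Wnt3, Tdrp at 0.35 ± 0.09 and the centromere protein gene Cenpb at 0.57 ± 0.14. The Tdrp value averages 2 probe sets that disagreed, at 0.71 ± 0.14 and -0.0067 ± 0.15. On the lower side the order was Mllt3, Ero1b, Arf5, the blood and endothelial factor gene Tal1 at -0.27 ± 0.09, and Adipor2. Of the 174 genes that the naming rule picked, 22 passed the adjusted threshold without PBS array 2, beside 96 of all 8251 genes. Among the 22 were Wnt3, Wnt11, Cyp26a1, Pkp3, Specc1, Rassf5, Rspo2, Sqstm1, Hmox2, Krt7, Mllt3 and Ero1b. The rule picked many of the 174 by p, separation or size of difference in these same data, so these passes add no support. PBS array 2 lay below all 3 cadmium arrays for Rspo2 and inside their range for Ero1b. For these genes the fit left out the PBS array that went against the difference.

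Among cell type markers those of surface ectoderm had the highest list median and those of endothelium the lowest. Of 37 surface ectoderm markers, 27 lay above 0 (73.0%, beside 46.9% of all genes), with a median of 0.10, and 28 did so without array 3, with a median of 0.14. The list median was 0.10, 0.10 and 0.15 on cadmium arrays 1, 2 and 3, against -0.09 and 0.09 on PBS arrays 1 and 2. All 3 cadmium medians exceeded the PBS medians, that of cadmium array 2 by little. At an unadjusted p under 0.05, 4 members were higher and 0 lower, beside 2.13% and 1.19% of all genes, and 0 passed the adjusted test. The 4 were the simple epithelial keratin genes Krt7 at 0.49 ± 0.24 and Krt19 at 0.42 ± 0.19, the tight junction gene Cldn4 at 0.44 ± 0.19, and Jup, the plakoglobin of desmosomes, at 0.33 ± 0.15. Arrays were separate for Krt19 and Jup and overlapped for Krt7 and Cldn4, whose PBS array 2 stood at 0.44 and 0.27. For Krt19 they were not separate on each of its probe sets. Of the 37 markers 3 are also in the ridge list (Trp63, Itga6 and Wnt6). In 3 h mesoderm 29 of the 37 lay above 0 with a median of 0.07, beside 4154 of the 8251 genes. The high share above 0 was thus not particular to ectoderm.

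Of 18 endothelial markers, 1 lay above 0, with a median of -0.10, or -0.21 without array 3. The list median was -0.26, -0.15 and 0.13 on cadmium arrays 1, 2 and 3, against 0.08 and -0.09 on PBS arrays 1 and 2. Cadmium array 3 lay opposite to the others, as it did over all genes, where the medians were -0.05, -0.03 and 0.08 on cadmium arrays 1, 2 and 3. The 1 member above 0 was Cdh5, the endothelial cadherin, at 0.22 ± 0.18 with separate arrays, while the transcription factor gene Ets1 was at -0.19 ± 0.15 and the receptor gene Tie1 at -0.18 ± 0.14. The 2 Tie1 probe sets were at 0.02 ± 0.22 and -0.38 ± 0.18. Without array 3 Cdh5 was 0.10 and Tie1 -0.31. After acetazolamide in 3 h ectoderm 2 of the 18 lay above 0 (median -0.08), beside 3208 of the 8251 genes. The low share above 0 was thus not particular to cadmium. After cadmium 6 of the 18 lay above 0 in 3 h mesoderm and 18 in 12 h ectoderm, beside 4154 and 4750 of the 8251 genes. Limb mesoderm markers had 12 of 33 above 0 and a median of -0.05 (-0.12 without array 3), with -0.19 and -0.13 on cadmium arrays 1 and 2 and 0.07 on cadmium array 3.

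The patterning gene Hoxa9 of the mesoderm showed how wide single genes could run. It was -1.47, -1.41 and -0.0065 on cadmium arrays 1, 2 and 3, against 0.74 and -1.61 on PBS arrays 1 and 2, a range among PBS arrays that covers all cadmium arrays, and its difference of -0.67 ± 0.43 has a 95% interval of -1.55 to 0.20. Hoxa10 was at -0.33 ± 0.19 and the mesenchymal cadherin gene Cdh11 at -0.33 ± 0.25, and without array 3 they were -0.59 and -0.52. Endoderm markers had 3 of 19 above 0 (median -0.05), and 2 of 19 after acetazolamide in 3 h ectoderm. Muscle progenitor markers had 5 of 11 above 0 (-0.00086), leukocyte markers 8 of 21 (-0.03) and neural crest markers 8 of 16. In red blood cell markers 6 of 20 lay above 0, but the embryonic globin genes Hba-x at 0.80 ± 0.34 and Hbb-y at 0.78 ± 0.33 were the highest members, and 1 of the 2 Hbb-y probe sets lay near 0 (-0.04 ± 0.30). Hba-x was 0.91, 0.14 and 1.24 on cadmium arrays 1, 2 and 3, against -0.44 and 0.34 on PBS arrays 1 and 2, so cadmium array 2 lay within the PBS range. Ratios hold no level, so the summed level of each marker list and its markers at 0 could not be given, and the part of other cell types in the differences above was not tested.

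**Figure D4:**
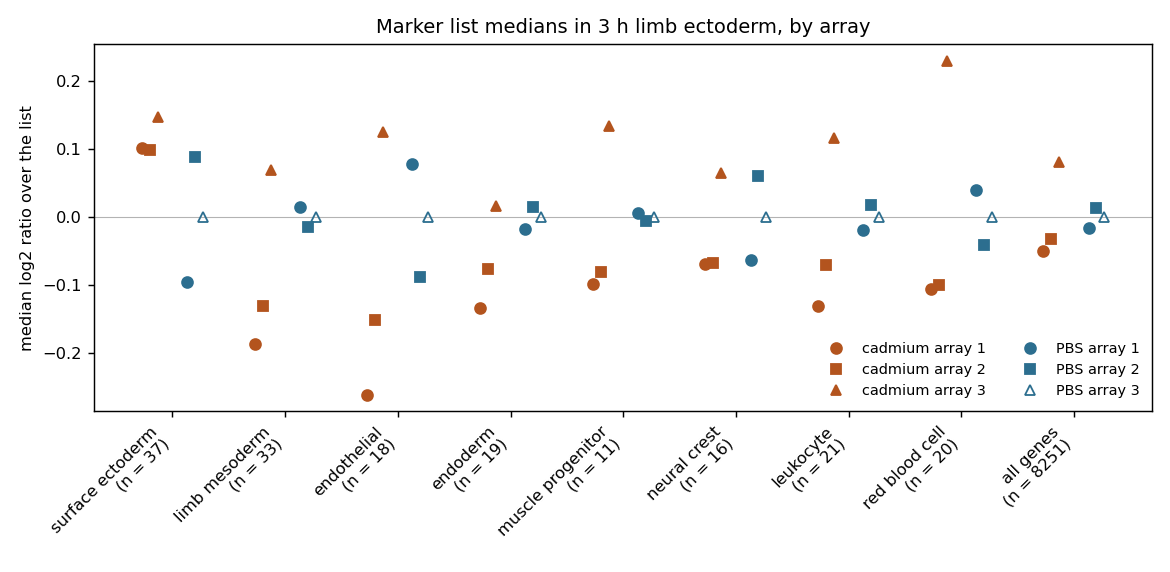
Median log2 ratio to PBS arrays (vertical axis) of 8 cell type marker lists and of all genes, with the number of measured genes, for each cadmium array (orange-brown, left) and PBS array (blue, right). Surface ectoderm has all 3 cadmium medians above the 3 PBS medians, while in the other 7 lists, as over all genes, cadmium arrays 1 and 2 lie below 0 and cadmium array 3 above it.

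Among growth and housekeeping genes, DNA replication genes had 24 of 36 above 0 with a median of 0.03, beside 46.9% and -0.0079 over all genes. Arrays were separate downward for 2 (5.56%, beside 3.82% of all genes) and upward for 6 (16.7%, beside 5.58%). The helicase subunit genes Mcm2 at 0.34 ± 0.15 and Mcm7 at 0.30 ± 0.19 were among these 6. The flap endonuclease gene Fen1 was at 0.34 ± 0.25 with overlapping arrays and was 0.04 without array 3. Mitosis genes had 20 of 33 above 0 (median 0.02), led by the kinesin gene Kif4 at 0.37 ± 0.16 with separate arrays. Genes of hypoxia and glycolysis had 9 of 28 above 0 (median -0.04), or 13 without array 3 (median -0.07). Arrays were separate upward for 1 (3.57%, beside 5.58% of all genes) and downward for 5 (17.9%, beside 3.82%). Among these 5 were Pfkp and the collagen hydroxylase gene P4ha1 at -0.40 ± 0.22. In this list 0 members were at an unadjusted p under 0.05 in either direction. The mitophagy gene Bnip3 was at -0.46 ± 0.36 (-0.20 without array 3). Sterol synthesis genes had 10 of 21 above 0, with Cyp51, a demethylase of the pathway, at -0.55 ± 0.25 and -0.29 without array 3.

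Matrix genes had 24 of 39 above 0 (median 0.05). Arrays were separate upward for 5 (12.8%) and downward for 4 (10.3%), beside 5.58% and 3.82% of all genes. Sparc, which encodes the secreted glycoprotein osteonectin, was 0.63, 0.60 and 0.23 on cadmium arrays 1, 2 and 3, against -0.0079 and 0.0079 on PBS arrays 1 and 2, and its arrays were separate with a difference of 0.49 ± 0.24. The basement membrane collagen gene Col4a2 was at 0.45 ± 0.23 and the protease inhibitor gene Timp3 at -0.34 ± 0.18 (-0.21 without array 3). Of 24 adhesion and catenin genes 13 lay above 0, with a median of 0.05. Fkbp5, a chaperone gene that glucocorticoids induce, was at 0.37 ± 0.13 with separate arrays (unadjusted p = 0.00848 by limma), and 11 of 22 glucocorticoid-responsive genes lay above 0. Medians were 0.0043 for 37 ribosomal protein symbols (the kinase gene Rps6kc1 among them), -0.0075 for 76 respiratory chain genes, 0.0049 for 46 proteasome genes and 0.05 for 61 mitochondrial ribosome genes. The 56 splicing factor genes had -0.16 on cadmium array 3, against 0.09 and 0.06 on cadmium arrays 1 and 2, and their median difference was -0.02 with all arrays and 0.09 without array 3. Of all these lists 0 members passed the adjusted test.

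Promoter letters were set against the differences for 5 motifs, over the 6576 genes that have both a window and a measurement. The metal response core TGCNCNC was in 62.8% of these genes, whose median difference was -0.00434, against -0.0123 for genes without it. For the antioxidant response core TGACNNNGC (in 12.4% of the 32851 windows and 16.9% of the genes) the medians were -0.00524 and -0.00751, and for the heat shock unit GAANNTTC (7.25% of genes) -0.0062 and -0.00728. The C/EBP-ATF core TGATGNAA, in 3.97% of windows and 3.00% of genes, had medians of -0.00619 and -0.00726, and the AP-1 site TGANTCA, in 7.81% of windows and 7.51% of genes, -0.0177 and -0.0065. All were searched on both strands, and matches of different motifs can overlap, as those of the antioxidant core and the AP-1 site do where their shared first letters coincide. Of the metal genes 17 had a window and 16 of these held the metal response core, and of the heat shock genes 23 had a window and 13 held GAANNTTC.

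Ectoderm was next set against limb bud mesoderm of the same time and dose, to ask whether the cadmium difference depended on the tissue. By limma 0 of 8251 genes (0%) differed in their cadmium difference between the tissues at 3 h, with 68 at an unadjusted p under 0.05, and the median half-width of the 95% interval was 0.35. The smallest p values belonged to Tdrp (ectoderm minus mesoderm 0.41 ± 0.11, unadjusted p = 0.00114 by limma), to Unc119b, a carrier of lipid-modified proteins (0.38 ± 0.11), and to the paraoxonase gene Pon1 (-0.35 ± 0.11), all with adjusted p of nearly 1, and Tdrp rests here too on the mean of its disagreeing probe sets. Fgf8 was -0.66 ± 0.23 in ectoderm and 0.22 ± 0.20 in mesoderm, a difference of -0.88 ± 0.30 (unadjusted p = 0.00694 by limma). Wnt11 was 0.58 ± 0.16 in ectoderm and -0.00058 ± 0.13 in mesoderm, a difference of 0.58 ± 0.20 (unadjusted p = 0.00787 by limma). Mt2 was 0.58 ± 0.26 in ectoderm and 0.27 ± 0.22 in mesoderm, Wnt3 0.58 ± 0.14 and 0.37 ± 0.12, and Dnajb1 -0.44 ± 0.17 and -0.53 ± 0.14.

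Across the 8251 genes the ectoderm and mesoderm differences at 3 h had r = 0.39 (Spearman's coefficient 0.36), and r = 0.51 (Spearman's coefficient 0.48) without ectoderm array 3. Of the 176 genes higher in ectoderm at an unadjusted p under 0.05, 156 (88.6%) lay above 0 in mesoderm, and of the 98 lower genes 78 (79.6%) lay below 0, beside the same sign in 63.1% of all genes. The arrays of the 2 tissues share no deposited control, but the labels do not tie ectoderm and mesoderm samples to common or different litters, genes are not independent, and a factor common to the 2 sets of arrays cannot be told apart from a common response.

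**Figure D5:**
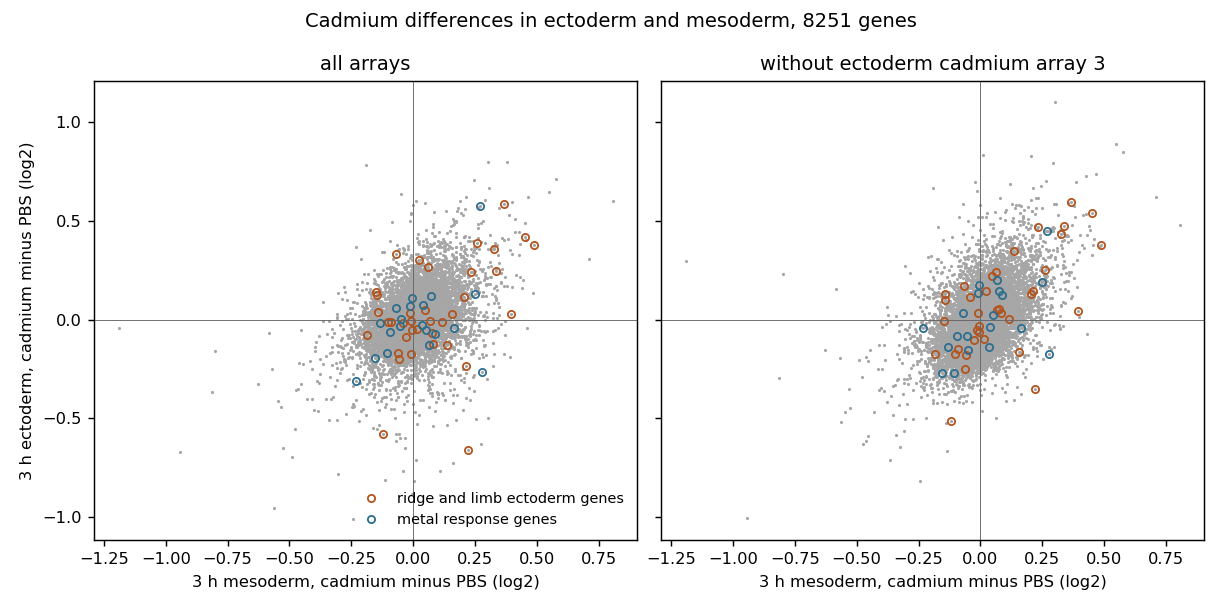
Difference between cadmium and PBS at 3 h in ectoderm (vertical axis, log2) against that in mesoderm (horizontal axis, log2) for 8251 genes (grey), with all arrays (left panel) and without ectoderm array 3 (right panel). The cloud tilts upward in both panels (r = 0.39 and 0.51), with ridge genes circled in orange-brown and metal genes in blue. Wnt3 and Mt2 lie among the circled genes at upper right and Fgf8 at lower right.

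At 12 h the ectoderm was measured on other arrays, and the 3 h difference is subtracted from the 12 h one. Mcam, an adhesion molecule of the immunoglobulin family, was the 1 gene called (0.0121% of genes) and is described in the closing section. Mt2 was -1.49 ± 0.41 at 12 h against 0.58 ± 0.26 at 3 h, a difference between the times of -2.06 ± 0.49 that did not pass (adjusted p = 0.303 by limma). Wnt3 was -0.17 ± 0.22 at 12 h, Tfap2b -0.03 ± 0.40 and Cyp26a1 -0.07 ± 0.34, and Fgf8 0.24 ± 0.36. All 4 of these 12 h values lay within 1 SE of 0.

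Acetazolamide, an inhibitor of carbonic anhydrase that causes a like forelimb defect, was given at 400 mg/kg with vegetable oil as its vehicle. Against it, 1 gene differed in 3 h ectoderm (0.0121% of genes), Crebrf, given in the closing section, with 517 at an unadjusted p under 0.05. Wnt3 was 0.58 ± 0.14 after cadmium and -0.13 ± 0.16 after acetazolamide, a difference of 0.72 ± 0.21. For Pkp3 the values were 0.71 ± 0.20 and -0.48 ± 0.21 (difference 1.18 ± 0.29), and for Mllt3 -1.01 ± 0.24 and 0.58 ± 0.26 (difference -1.59 ± 0.35). These 3 differences did not pass (adjusted p from 0.38 to 0.641 by limma). Across genes the cadmium and acetazolamide differences had r = -0.16 (Spearman's coefficient -0.12) with all arrays and r = 0.27 (Spearman's coefficient 0.27) without array 3, so the sign turned with it. The same held against the 12 h cadmium difference in ectoderm, with r = 0.13 (Spearman's coefficient 0.08) and, without array 3, r = -0.28 (Spearman's coefficient -0.32).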

How the data were processed

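Each array of biotin-labelled total RNA is an Affymetrix MG-U74Av2 array with 1 colour. The values are linear ratios, and that the vehicle arrays average to 1 was read from the deposited values. How the authors computed and normalized the ratio values before they deposited them is not given in the sources used here, and no intensity or detection call was used. The ratios were converted to log2, with no pseudocount and no filter on low values, since a ratio holds no level. Names are those of the platform annotation, checked against RefSeq (10817 of 10833 probe sets matched by Entrez ID), which changed 0 of them. Where several probe sets named the same gene their log2 values were averaged. This joined probe sets for 2073 genes. A linear model over all 48 arrays (limma 3.58.1, R 4.3.3) held 8 agent effects, a block for each inferred denominator, and a precision weight per comparison, with 24 residual degrees of freedom. Unadjusted and adjusted p-values are from limma, adjusted with Benjamini-Hochberg at 0.05. The number of arrays limits the precision. The alternatives were no weights, no denominator block, a replicate block, median centring, robust moderation, fewer arrays, each array left out, and single probe sets. The model was tested on simulated data.

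Named genes were the 10 highest and 10 lowest with separate arrays, the 5 smallest p in each direction, every metal and ridge gene, the 3 largest differences of each other list, and the called genes or 3 smallest p of each between-condition difference. All members and the 37 lists were chosen with earlier results of these data known. Whether replicate numbers pair the samples is not given in the labels used here. The array 1 minus array 2 contrasts of cadmium and PBS ectoderm had r = 0.04. Those of ectoderm and mesoderm had r = -0.09 for cadmium and -0.31 for PBS. These values gave no clear sign of pairing and cannot exclude a weak one.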

Additional observations from a re-analysis of the deposited data

Results flagged for a closer look

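For 2 genes the cadmium difference in 3 h ectoderm differed from that under another condition by limma. Mcam, an adhesion molecule of the immunoglobulin family, was 1.10 ± 0.16 at 12 h and -0.03 ± 0.10 at 3 h, a difference between times of 1.13 ± 0.19 (adjusted p = 0.0111 by limma). It passed in 14 of 19 alternatives, where the adjusted p ranged from 0.000285 to 0.634. It was lost without cadmium array 2 at 3 h, without array 3 of either group at 12 h, with arrays 1 and 2 only, and with the replicate block. Crebrf, a regulator of the stress factor CREB3, was -0.18 ± 0.11 after cadmium and 0.93 ± 0.12 after acetazolamide, a difference of -1.11 ± 0.16 (adjusted p = 0.00202 by limma). It passed in 18 of 19 alternatives, where the adjusted p ranged from 2.23e-05 to 0.265, and was lost with arrays 1 and 2 only.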

How the results depend on the processing

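The count of genes called for cadmium against PBS in 3 h ectoderm was 0 in every alternative run except without PBS array 2, and ranged from 0 to 96 over the fits that each leave out 1 array. The count for ectoderm minus mesoderm was 0 in every alternative. For 12 h minus 3 h the count of 1 became 0 with arrays 1 and 2 only and 3 with single probe sets, and ranged from 0 to 22 over the fits without 1 array, where leaving out PBS array 1 at 12 h gave 22 and cadmium array 2 at 12 h gave 2. For cadmium minus acetazolamide the count of 1 became 0 with arrays 1 and 2 only and ranged from 1 to 5 without 1 array, where leaving out PBS array 2 gave 5, cadmium array 1 gave 3, and oil array 2, oil array 3 or acetazolamide array 3 gave 2 each. The cause of these moves was not tested. The replicate block has no pairing in the labels behind it. With it the counts were 0 for 3 h ectoderm and 0 for ectoderm minus mesoderm. They were 0 for 12 h minus 3 h and 1 for cadmium minus acetazolamide. Of 2436 values of the 174 named genes over the alternatives, 100 had the other sign, spread over 40 genes, and 42 of 407 list medians moved by more than their SD over the cadmium arrays. Ratios without intensities leave signal over background unknown, so a low probe cannot be told from an unchanged one.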
